A study of Rattus norvegicus with 6 samples.

Results

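The genes described here encode the nuclear-encoded subunits of the mitochondrial respiratory chain, measured in the trigeminal nerve of 3 rat strains. They were taken by symbol: every array probe whose gene symbol begins with Nduf, Sdh followed by a to d, Uqcr, Cox4 to Cox8, or Atp5. The pattern took 71 probes of 71 genes out of 21791 probes, with 29 in complex I, 4 in complex II, 4 in complex III, 11 in complex IV and 13 in complex V. A class of 10 further matches held no subunits: the assembly factors Ndufaf1 to Ndufaf7, Sdhaf2 and Sdhaf3, and the pseudogene Ndufs6-ps1. All 71 symbols had the same symbol in the RefSeq gene table of the rat assembly GRCr8.

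All rats were untreated and 85 days old, so no group had received the carcinogen. The congenic strain BDIX.BDIV-Mss4a (called congenic) carries the BDIV segment Mss4a on the genetic background of BDIX. BDIV is the inbred donor strain, which resists malignant schwannomas induced by ethylnitrosourea, and BDIX is the susceptible inbred background strain. Each strain gave 1 male and 1 female pool of nerves, and every pool was read on 1 BeadChip, an Illumina array of bead-bound probes, 6 arrays in all. How many rats made a pool is not stated in the sources used here, and a p-value measures spread among the 6 pools, which may be technical.

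Complexes I to IV pass electrons from NADH and succinate to oxygen and pump protons across the inner mitochondrial membrane. Complex V, the ATP synthase, uses the returning protons to make ATP. Complex II is the only one that pumps no protons, and it is at the same time the succinate dehydrogenase of the citric acid cycle. Complexes I, III, IV and V also contain subunits encoded by mitochondrial DNA, which the symbol pattern does not take. In peripheral nerve this chain supplies ATP to axons, and Schwann cells hold it as well.

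Of the 71 probes, 62 were detected on all 6 arrays (detection p under 0.01), and 64 passed the filter of detection on at least 2 arrays and were tested. Ndufs4, Atp5mc3, Ndufs6-ps1 and the isoforms Cox6a2, Cox8b and Cox8c were detected on no array. Cox6a2 and Cox8b are the heart and skeletal muscle forms of complex IV subunits and Cox8c is a testis form. Ndufb4 was left out because its values were exchanged with those of another probe between the deposited tables. Tested members numbered 27 in complex I, 4 in complex II, 4 in complex III, 8 in complex IV, 12 in complex V and 9 among assembly factors. The congenic arrays were dimmer, with an upper quartile of signal over mean background of 2.58 in the male and 2.63 in the female pool, against 5.33 to 6.46 on the BDIV and BDIX arrays. Even so, 63 to 65 of the 71 members were detected on each array.

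Across the 6 arrays the medians of complexes I, III, IV and V had a like profile, high on both BDIV arrays and low on the BDIX female array. With each probe centred on its mean over the arrays, the median complex I subunit stood at 0.05 in the congenic male and -0.20 in the congenic female pool. It stood at 0.40 and 0.47 in the BDIV male and female pools, and at 0.05 and -0.81 in the BDIX male and female pools (log2 intensity relative to the probe mean). Complex IV gave -0.21 and -0.49 in the congenic, 0.55 and 0.69 in BDIV, and 0.06 and -0.65 in BDIX, in the same order of sexes. The complex II median stayed between -0.16 and 0.08 on every array. The BDIX female array held the lowest value of 44 of 64 members, against 19.59% of all 10484 probes tested, and the BDIV female array held the highest value of 38 members, against 16.72% of all probes. By strain mean, 38 members ran BDIV over congenic over BDIX and 16 ran BDIV over BDIX over congenic. The remaining 10 had another order, with congenic highest for 7 and BDIX highest for 3.

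**Figure D1:**
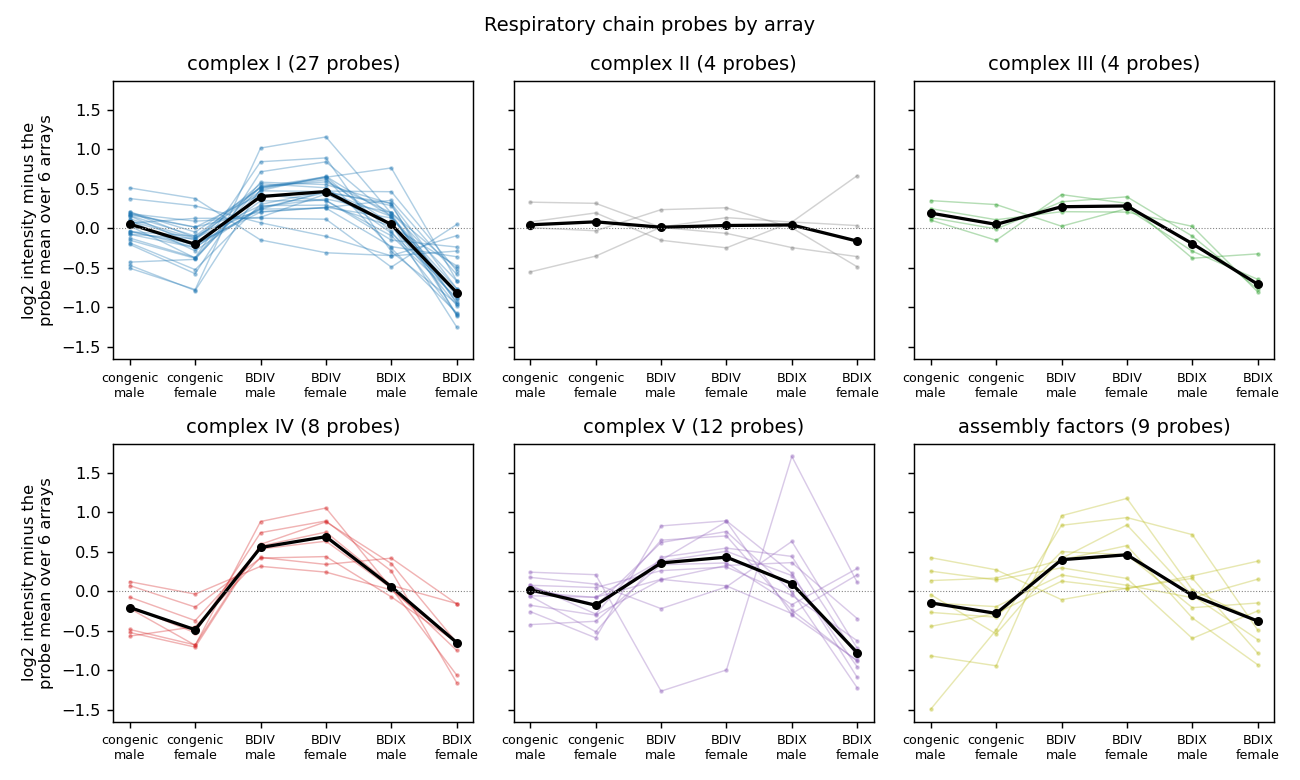
Log2 intensity of each tested member minus its mean over 6 arrays (y axis), by strain and sex of the pool (x axis), in panels for complexes I to V and the assembly factors. Thin lines are probes and the black line is their median. In complexes I, III, IV and V the median is highest in the BDIV pools and lowest or near lowest in the BDIX female pool, and the complex II median stays between -0.16 and 0.08.

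Because most of these genes ran in the same order over the arrays, their promoters were searched for the motifs of factors known to act on respiratory chain genes in mammals. RefSeq promoter sequence of GRCr8 was held for 62 of 71 members, and the 250 bases before the gene start were read on both strands. The NRF-1 motif, spelled GCGCA, any 1 base and GCGC, was present in 13 of 62 members (21%). It was present in 5.07% of 21851 protein-coding promoters and in 6.49% of 11426 promoters of genes on the array. The ETS motif CCGGAAG, bound by GABP among others, was present in 18 of 62 members (29%), 9.01% of coding promoters and 11% of array-gene promoters. The YY1 motif AAGATGGC was present in 2 of 62 members (3.23%), 1.64% of coding promoters and 1.79% of array-gene promoters. The ETS and YY1 motifs can share the letters AAG, and 2 members held both the NRF-1 and the ETS motif. The windows below are examples picked after the values were seen, from members called in at least 1 strain comparison. Capitals mark the NRF-1 match (either strand), or the ETS match in Atp5mk.
Ndufs5, chr5:141264497-141264556, minus strand: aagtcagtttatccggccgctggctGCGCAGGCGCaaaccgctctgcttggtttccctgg
Atp5po, chr11:44657508-44657567, minus strand: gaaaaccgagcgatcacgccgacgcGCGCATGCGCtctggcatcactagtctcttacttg
Ndufaf5, chr3:147961572-147961611, plus strand: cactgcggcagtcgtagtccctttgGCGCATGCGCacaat
Sdha, chr1:30764439-30764498, plus strand: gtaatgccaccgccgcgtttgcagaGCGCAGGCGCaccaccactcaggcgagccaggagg
Atp5mk, chr1:255922074-255922130, minus strand: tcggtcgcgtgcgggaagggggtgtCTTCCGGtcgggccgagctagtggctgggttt

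A match is a description of letters and not of binding. The strain differences were then set side by side for members with and without a motif. In BDIV over BDIX, 13.7% of all probes tested were called higher and 13.6% lower (limma, adjusted p under 0.05). Of the 13 tested members with the NRF-1 motif 5 were called, all higher, with a median log2 difference of 0.68. Without the motif, 15 of 43 were called higher and 1 lower, with a median of 0.69. With the ETS motif, 4 of 18 were called higher and 1 lower, and without it 16 of 38 were called higher. Sdha, with 2 NRF-1 matches, was among the members that did not share the profile.

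The comparison of BDIV with BDIX sets a resistant against a susceptible strain before any exposure. In BDIV 24 of 64 members were higher and 1 was lower (limma, adjusted p under 0.05 over all 10484 probes), against 13.7% of all probes higher and 13.6% lower (27.3% called in either direction). The 24 are 37.5% of the members. The median log2 difference of the members was 0.69, against -0.04 over all probes tested, and 58 of 64 differences were positive. Both BDIV arrays lay above both BDIX arrays for 47 members, against 33% of all probes, and below them for 3 members, against 37.7% of all probes. The members' median was 0.33 between the male pools and 1.09 between the female pools. Sensory neuron and axon markers moved the same way, with 14 of 18 higher in BDIV (median 1.11), and myelinating Schwann cell markers the other way, with 7 of 10 lower (median -1.14). Fibroblast and matrix markers had 9 of 14 lower (median -1.17), erythrocyte markers 7 of 9 lower (median -2.31), endothelial markers 2 of 3 lower (median -0.93) and macrophage markers 0 of 7 called (median 0.32). The part of these cell types in the members' differences was not tested, and in bulk RNA fewer cells of a type and less RNA per cell cannot be told apart.

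In complex I, 10 of 27 subunits rose in BDIV and none fell, with a median of 0.72. Ndufs5, a small accessory subunit on the intermembrane-space side, read 13.30 and 13.45 in the BDIV male and female pools, against 12.48 and 11.20 in the BDIX male and female pools (log2 intensity). Its groups did not overlap, although the BDIX male pool was much nearer to BDIV than the BDIX female pool was. The difference was 1.53 ± 0.32 (log2 ± SE, adjusted p = 0.0151 from limma). Ndufa7, another accessory subunit, read 9.83 and 9.88 in BDIV, against 8.69 and 8.03 in BDIX. Both BDIV pools were higher, by 1.49 ± 0.22 (adjusted p = 0.00585). Ndufa8, Ndufb6, Ndufb7, Ndufb8, Ndufb9, Ndufb5 and Ndufab1, the mitochondrial acyl carrier protein, rose by 0.88 to 1.24. Of the 6 measured core subunits, most of which carry the flavin or iron-sulfur clusters of the electron path, Ndufs7 passed with 0.94 ± 0.26 (adjusted p = 0.0343). Ndufs8 (0.79), Ndufs3 (0.72), Ndufv1, the NADH-binding subunit (0.54), Ndufv2 (0.51) and Ndufs1, the largest core subunit (0.34), had positive log2 differences that did not pass. Ndufa10 and its paralog Ndufa10l1, whose probes may share signal, differed by 0.30 and -0.01 and did not pass.

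Complex II was the one complex without a call, and its median was 0.01. Sdha, the flavoprotein that oxidises succinate, read 10.86 and 10.98 in the BDIV male and female pools, against 10.93 and 11.51 in the BDIX pools. The 2 strains overlapped, and the difference of -0.30 ± 0.19 did not pass (adjusted p = 0.277). Sdhb, the iron-sulfur subunit, differed by 0.49 (adjusted p = 0.11). The membrane anchors Sdhc and Sdhd differed by -0.26 and 0.28 and did not pass. With 4 probes, whether complex II differs from the other complexes was not tested.

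In complex III, 2 of 4 subunits rose in BDIV and the median was 0.66. Uqcrc1, a core protein of the complex, read 12.01 and 11.89 in BDIV, against 11.20 and 11.26 in BDIX. Its pools lay close together within each strain, and the difference was 0.72 ± 0.18 (adjusted p = 0.0251). Uqcrh, the hinge protein near cytochrome c1, rose by 0.80 ± 0.24 (adjusted p = 0.0463), a call lost when the arrays were scaled by cyclic loess (0.51, adjusted p = 0.129). Uqcrfs1, the Rieske iron-sulfur protein, and Uqcrb differed by 0.61 and 0.60 without passing.

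In complex IV, cytochrome c oxidase, 5 of 8 subunits rose in BDIV, none fell, and the median was 0.84. Cox5a, a nuclear subunit on the matrix side, read 12.73 and 12.90 in the BDIV male and female pools, against 11.89 and 10.79 in the BDIX pools. The strains did not overlap, and the BDIX pools were 1.10 apart. The difference was 1.48 ± 0.29 (adjusted p = 0.0123). Cox5b rose by 1.27 ± 0.34, Cox7b by 0.94, Cox4i1, the largest nuclear subunit, by 0.79 ± 0.21, and Cox7a2l, which links complexes III and IV in supercomplexes, by 0.70 ± 0.19. Cox8a differed by 0.89 and Cox6a1 by 0.59, both short of the threshold. Cox6c was close to background, detected in both BDIV pools and 1 BDIX pool, and differed by 0.25 (adjusted p = 0.465).

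In complex V, 4 of 12 subunits rose in BDIV and 1 fell, with a median of 0.65. Atp5f1d, the delta subunit of the central stalk, read 13.40 and 13.45 in BDIV, against 12.51 and 11.86 in BDIX, a difference of 1.24 ± 0.22 (adjusted p = 0.00923). Atp5po, the subunit that confers oligomycin sensitivity and caps the peripheral stalk, read 14.63 and 15.12 in BDIV, against 13.94 and 13.36 in BDIX, a difference of 1.22 ± 0.28. In both genes each BDIV pool was above each BDIX pool. The size for Atp5po depended on the scaling of the arrays. Its difference was 0.60 under cyclic loess (limma adjusted p = 0.0941) and 0.715 in the authors' processed values (adjusted p = 0.203), so its call was lost in both. Atp5pd, of the same stalk, and Atp5mc1, one of the genes for the proton-carrying c-ring, rose by 1.29 ± 0.31 and 1.30 ± 0.32. The catalytic pair Atp5f1a and Atp5f1b differed by 0.15 and 0.29 and did not pass. Atp5mk, a small membrane subunit known as DAPIT, was the exception. It was not detected in either BDIV pool (4.77 and 5.04), while the BDIX pools read 7.74 and 6.14, which makes it at least 3.62-fold lower in BDIV by the mean of both pools (adjusted p = 0.015). The size rests on the BDIX male pool: without it the log2 difference was -1.16 (adjusted p = 0.0203), and without the BDIV male array the call was lost (adjusted p = 0.0644). A strain difference in sequence under this or any other probe cannot be told apart from a difference in transcript level.

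Among assembly factors 3 of 9 rose in BDIV. Ndufaf5, which modifies the complex I core subunit Ndufs7, read 10.35 and 10.57 in BDIV, against 9.41 and 9.01 in BDIX, a difference of 1.25 ± 0.21 (adjusted p = 0.00767). Ndufaf6 and Sdhaf3, a factor for the iron-sulfur subunit Sdhb, rose by 1.12 ± 0.23 and 0.96 ± 0.28. Ndufaf1 (0.66), Ndufaf7 (0.65), Ndufaf2 (0.77), Ndufaf3 (0.28), Sdhaf2, which attaches the flavin to Sdha (0.11), and Ndufaf4 (-0.21) did not pass. The counts in this comparison depended on single arrays: without the BDIV female array 0 members were called higher (2.05% of all probes) and without the BDIX male array 49 were (20.6% of all probes), while the members' median stayed between 0.40 and 1.06 whichever array was left out. Of the 25 calls, 0 held whichever array was left out, 22 held without the BDIX female array and 8 held in the authors' own processed values.

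**Figure D2:**
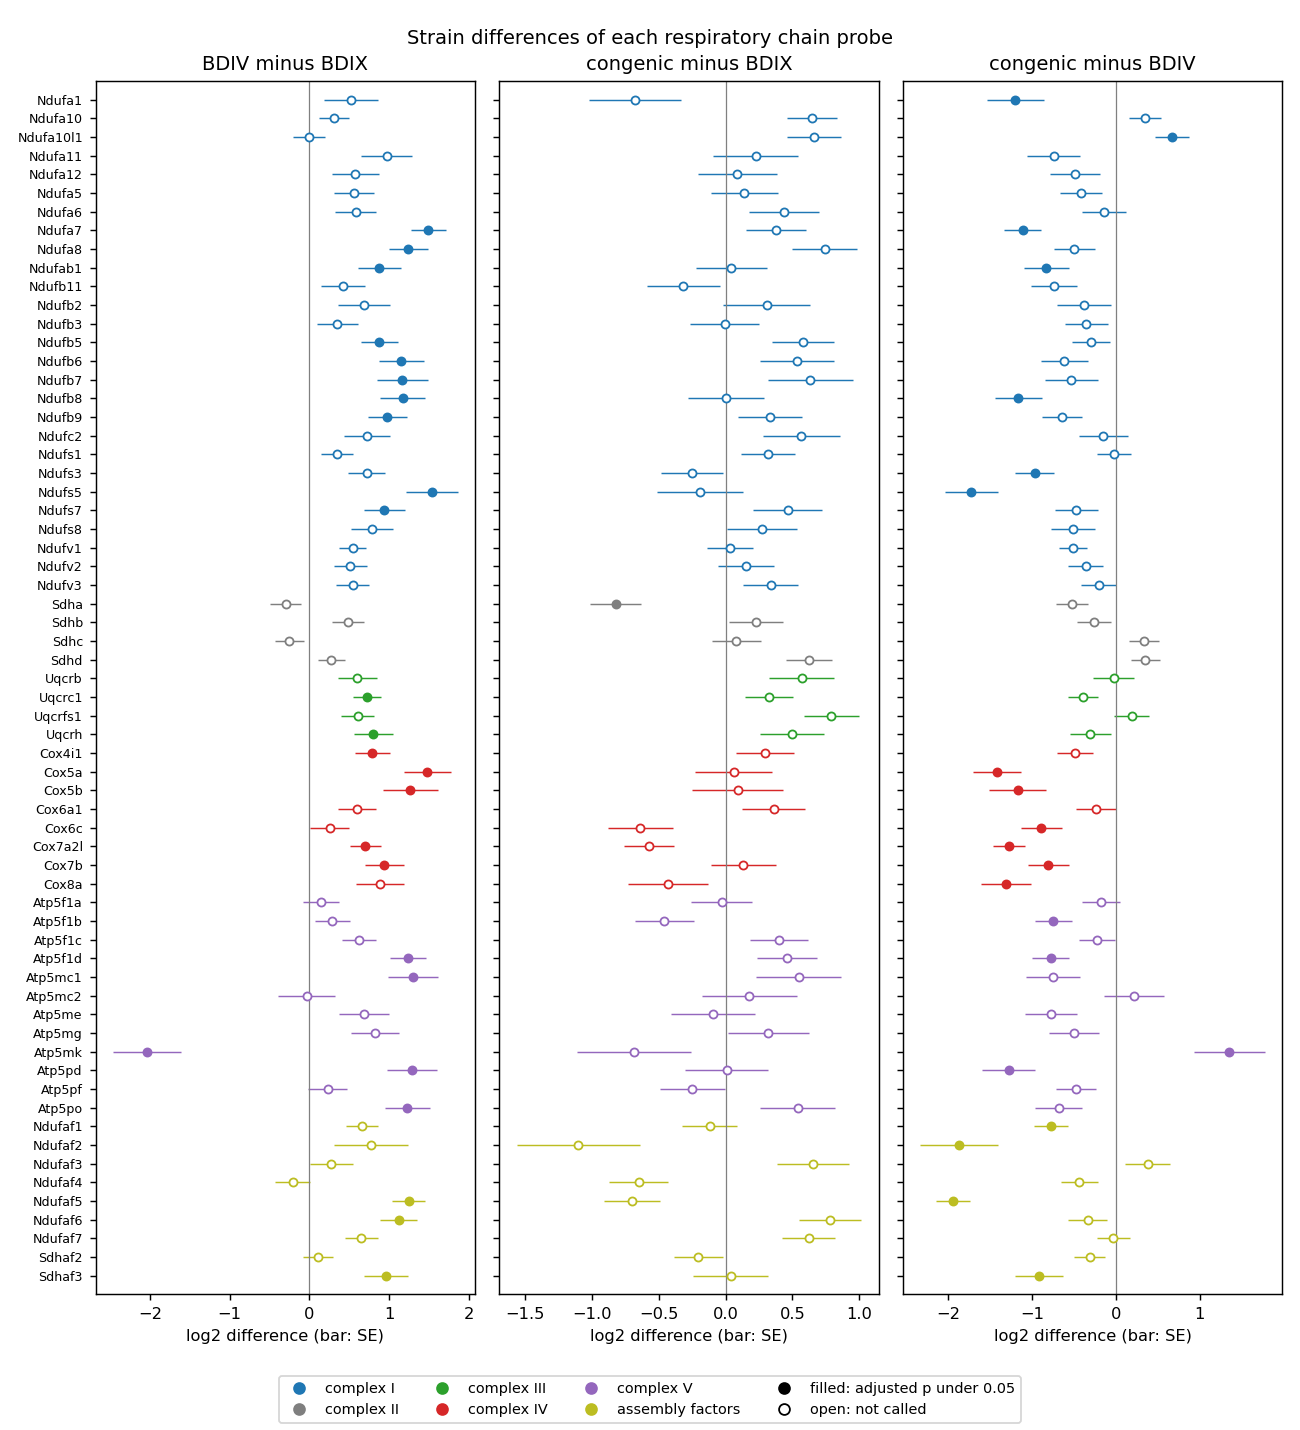
Log2 difference of each tested member (x axis, bars are SE from the fit over 6 arrays) in BDIV minus BDIX, congenic minus BDIX and congenic minus BDIV, with members grouped by complex down the page and a scale of its own in each panel. Filled points passed an adjusted p of 0.05: 25 in the left panel, 1 in the middle and 21 in the right, where most lie left of 0. Atp5mk in the BDIV pools and Cox6c in the congenic pools were at background, so their points in those comparisons hold only as bounds.

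The comparison of congenic with BDIV sets rats that share the Mss4a segment against each other on different backgrounds, and it uses the same BDIV arrays as above. In the congenic 19 of 64 members were lower than in BDIV (29.7%) and 2 were higher, against 18.9% of all probes lower and 18.1% higher. In either direction 32.8% of members were called, against 37% of all probes. The members' median was -0.50 (all probes -0.02), with -0.35 between the male and -0.65 between the female pools. Both congenic arrays lay below both BDIV arrays for 52 members, against 39.8% of all probes, and above them for 8, against 39.2%. Sensory neuron markers had 10 of 18 lower in the congenic than in BDIV (median -0.89), and 7 of 7 tested airway and gland markers were higher in the congenic. Erythrocyte markers had 9 of 9 higher (median 2.08), endothelial markers 2 of 3 higher, fibroblast and matrix markers 6 of 14 higher and 3 lower, and myelinating Schwann cell markers 3 of 10 higher and 2 lower. Their part was not tested.

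Complex IV held the lowest median, -1.03, with 6 of 8 subunits lower. Cox7a2l read 11.41 and 11.23 in the congenic male and female pools, against 12.51 and 12.69 in the BDIV pools. The pools of each strain lay close together and the difference was -1.27 ± 0.19 (adjusted p = 0.00396). Cox5a read 11.63 and 11.16 in the congenic, against 12.73 and 12.90 in BDIV, a difference of -1.42 ± 0.29 (adjusted p = 0.0106). Cox8a (-1.32 ± 0.30), Cox5b (-1.18) and Cox7b (-0.81) were lower as well. Cox6c, not detected in either congenic pool (4.67 and 4.79, against 5.67 and 5.58 in BDIV), was at least 1.22-fold lower (adjusted p = 0.0267). Cox4i1 (-0.49) and Cox6a1 (-0.24) did not pass.

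In complex I, 6 of 27 subunits were lower in the congenic (22.2%, close to the 18.9% of all probes) and 1 was higher. Its median was -0.50. Ndufs5 read 11.79 and 11.52 in the congenic, against 13.30 and 13.45 in BDIV, a difference of -1.73 ± 0.32 (adjusted p = 0.00782). Ndufa7 read 8.86 and 8.62, against 9.83 and 9.88 in BDIV, a difference of -1.11 ± 0.22. Both genes lay clearly below BDIV in both sexes. Ndufa1, an accessory subunit encoded on the X chromosome, Ndufb8, the core subunit Ndufs3 and Ndufab1 were lower, with differences of -1.20 to -0.83. Ndufa10l1 went the other way, with 13.48 and 13.34 in the congenic, against 12.82 and 12.66 in BDIV (0.67 ± 0.20, adjusted p = 0.0363). With arrays scaled by their medians its difference was -0.04 (adjusted p = 0.869). Its paralog Ndufa10 differed by 0.35 and did not pass. The core subunits Ndufs1 and Ndufv1 differed by -0.03 and -0.51 (adjusted p = 0.93 and 0.0512).

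Complexes II and III had no call between the congenic and BDIV, with medians of 0.04 and -0.17. Sdha differed by -0.53 (adjusted p = 0.0654), Sdhb by -0.26, Sdhc by 0.34 and Sdhd by 0.35. Uqcrc1 differed by -0.40, Uqcrh by -0.30, Uqcrb by -0.03 and Uqcrfs1 by 0.19. In complex V, with a median of -0.59, 3 of 12 subunits were lower (25%, against 18.9% of all probes) and 1 was higher. Atp5pd read 9.97 and 9.64 in the congenic, against 11.06 and 11.12 in BDIV, a difference of -1.28 ± 0.31 (adjusted p = 0.0187). Atp5f1d and the catalytic subunit Atp5f1b were lower, at -0.78 and -0.75, while Atp5f1a differed by -0.18 and did not pass. The Atp5f1b call was lost under cyclic loess (-0.43, limma adjusted p = 0.157) and in the authors' processed values (-0.01, adjusted p = 0.971). Atp5f1d stood at -0.82 under cyclic loess (adjusted p = 0.0211), and its call was lost in the authors' values (-0.465, adjusted p = 0.255). Atp5mk was at least 2.26-fold higher in the congenic, with 6.27 and 6.24, against 4.77 and 5.04 at background in BDIV (adjusted p = 0.0428).

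Among assembly factors 4 of 9 were lower in the congenic. Ndufaf5 read 8.57 and 8.45, against 10.35 and 10.57 in BDIV, a difference of -1.95 ± 0.21 (adjusted p = 0.00181). It had the smallest adjusted p of the 64 members in this comparison, and it was the 1 call of 21 that held whichever array was left out. Ndufaf2, which takes part in complex I assembly, was lower at -1.87 ± 0.46, as were Sdhaf3 at -0.92 and Ndufaf1 at -0.78. Ndufaf2 was detected in only 1 of the 2 congenic pools, which read 5.82 in the male and 6.82 in the female pool. Without the congenic male array its difference was -1.10. Of the 21 calls, 19 held under cyclic loess and 7 in the authors' processed values. Both comparisons with BDIV share its arrays, and 13 members (20.3%) were called in both, against 17.5% of all probes. The 19 lower calls became 1 without the BDIV female array (5.96% of all probes lower), 8 without the congenic male array (14.7%), 41 without the BDIX male array (27.7%) and 42 without the BDIX female array (28.7%).

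The comparison of congenic with BDIX sets pools with the BDIV segment on the BDIX background against BDIX pools. The congenic arrays were dimmer, with upper quartiles of signal over mean background of 2.58 and 2.63, against 5.33 and 5.95 for BDIX. Here 0 of 64 members were higher and 1 was lower, against 4.33% of all probes higher and 7.56% lower (11.9% called in either direction). At an unadjusted p under 0.05 the count was 15 (23.4%), below the 33.6% of all probes. Both congenic arrays lay above both BDIX arrays for 18 members, against 29.8% of all probes, and below them for 8, against 29.2%. Airway and gland markers had 7 of 7 tested higher (median 3.39) and myelinating Schwann cell markers 5 of 10 lower (median -1.04). Fibroblast and matrix markers had 1 of 14 higher and 4 lower, erythrocyte markers 3 of 9 lower, and sensory neuron markers 1 of 18 higher and 1 lower. Endothelial markers had 0 of 3 called and macrophage markers 0 of 7. The part of these markers was not tested. The members' median was 0.20 (all probes 0.00), but it turned to -0.36 with arrays scaled by their medians, where all probes stood at -0.52, and to -0.06 without the BDIX female array. The 1 call was Sdha, with 10.30 and 10.50 in the congenic male and female pools, against 10.93 and 11.51 in the BDIX pools. Both congenic pools were lower, a difference of -0.82 ± 0.19 (adjusted p = 0.0396). Its call did not hold without the congenic male (adjusted p = 0.146), or without the congenic female or either BDIV array. Without the BDIX male array 32 members were called higher and 2 lower, against 14.1% and 15% of all probes. Without the BDIX female array 6 were called higher and 15 lower, against 10.4% and 12.4% of all probes.

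The 3 other complex II subunits read the other way, with Sdhd at 0.62 ± 0.17 (adjusted p = 0.055), Sdhb at 0.23 and Sdhc at 0.08. Complex III had the highest median of the complexes, 0.53, which stayed positive with each scaling and whichever array was left out. Its Uqcrfs1 read 12.88 and 12.83 in the congenic, against 12.24 and 11.88 in BDIX, a difference of 0.79 ± 0.21 that just missed the threshold (adjusted p = 0.0501). Each of the 4 complex III subunits was higher in both congenic pools than in both BDIX pools. In complexes I, IV and V the medians of 0.31, 0.08 and 0.09 were negative under median scaling, at -0.33, -0.45 and -0.38, and the complex IV median was also -0.03 under cyclic loess. Ndufa10 and Ndufa10l1 differed by 0.65 and 0.66, Ndufa8 by 0.74, Cox7a2l by -0.57 and Cox6c by -0.64, all short of the threshold. Ndufaf6 (0.79), Ndufaf7 (0.62), Ndufaf3 (0.66), Ndufaf5 (-0.70), Ndufaf4 (-0.65) and Ndufaf2 (-1.10) lay on both sides of 0 and did not pass. Ndufs1, Ndufv1, Cox4i1, Cox5a, Atp5f1a and Atp5f1b differed by 0.32, 0.03, 0.29, 0.06, -0.03 and -0.46, also without passing.

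Between the male and the female pool the members' gap was widest in BDIX. Over the 3 strains 0 members and 0% of all probes passed the limma test for sex, with 1 member at an unadjusted p under 0.05. Male minus female, the members' median was 0.16 in the congenic, -0.06 in BDIV and 0.73 in BDIX, against 0.00, 0.00 and -0.04 over all probes. The male pool was higher for 55 of 64 members in the congenic (85.94%), 18 in BDIV (28.12%) and 53 in BDIX (82.81%), against 49.98%, 50.26% and 46.18% of all probes. The BDIX medians were 0.94 in complex I, 0.08 in complex II, 0.51 in complex III, 0.73 in complex IV and 0.93 in complex V. With 1 pool per sex, a sex difference within a strain cannot be told apart from a difference between 2 pools. Over all probes the SD of the male minus female difference was 0.45 in congenic, 0.21 in BDIV and 0.52 in BDIX rats.

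The lower readings of the BDIX female pool were not shared by every subunit. The accessory subunits of complex I had a median male minus female difference of 0.94 in BDIX and the core subunits 0.60, a grouping made after the values were seen. In complex V the small membrane subunits stood at 1.27, the c-ring genes at 1.28 and the peripheral stalk at 0.71. The head and central stalk split, with Atp5f1c at 0.57 and Atp5f1d at 0.65 and the catalytic pair Atp5f1a and Atp5f1b at -0.49 and -0.46. Ndufs1 (10.89 in the BDIX male and 11.43 in the female pool), Sdha (10.93 and 11.51), Atp5f1a (13.63 and 14.12) and Atp5f1b (14.03 and 14.49) were higher in the female pool. These 4 encode large subunits of complexes I, II and V. The 11 members that were not lower in the BDIX female pool also included Uqcrc1, Ndufa10, Ndufa10l1, Ndufaf1, Ndufaf4, Ndufaf7 and Sdhaf2.

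**Figure D3:**
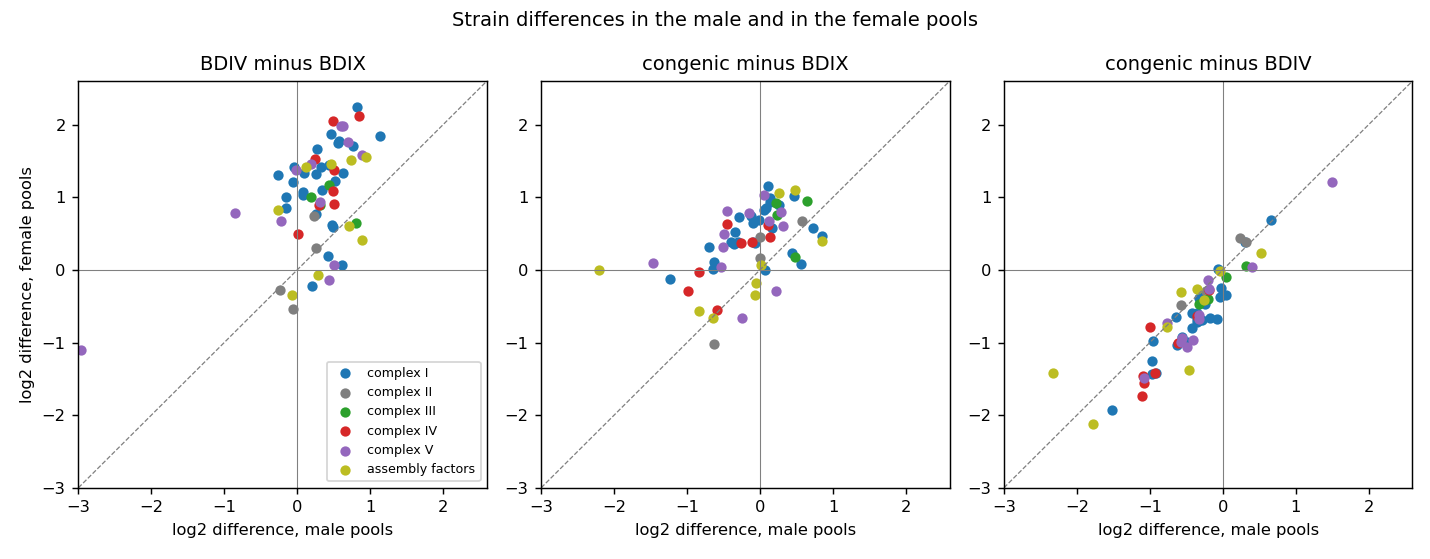
Log2 difference of each tested member between the female pools (y axis) against that between the male pools (x axis), for BDIV minus BDIX, congenic minus BDIX and congenic minus BDIV, coloured by complex. The dashed line marks equal differences. In the 2 comparisons with BDIX most points lie above that line (medians of 0.33 in males and 1.09 in females for BDIV minus BDIX), while in congenic minus BDIV they lie closer to it.

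Other mitochondrial genes were read from lists named by function, against 13.7% of all probes higher in BDIV than in BDIX. In BDIV against BDIX the mitochondrial ribosomal proteins had 15 of 56 higher (26.8%) and 0 lower (median 0.58), and the Tomm and Timm import subunits 7 of 16 higher (43.8%) and 0 lower (median 0.55). Electron carriers and exchangers had 5 of 18 higher (27.8%, median 0.53), among them Coq3, an enzyme of ubiquinone synthesis, at 1.66 (adjusted p = 0.00276), and Vdac1, the outer-membrane channel, at 0.92 (adjusted p = 0.0112). Cycs, cytochrome c, differed by 0.51 and did not pass. The full list of assembly factors for these complexes had 10 of 29 higher (34.5%) and 0 lower (median 0.49), with Coa5 and Coa3, factors for complex IV, at 1.43 and 1.32 (adjusted p = 0.00913 and 0.0211). Citric acid cycle and pyruvate dehydrogenase genes had 2 of 13 higher (15.4%, close to that share, median 0.32) and glycolytic genes 4 of 14 (28.6%, median 0.48).

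The regulators of mitochondrial biogenesis had a median of the opposite sign. In BDIV against BDIX 0 of 12 were higher and 2 were lower (16.7%, close to the 13.6% of all probes, median -0.33): Polg2, the accessory subunit of the mitochondrial DNA polymerase, at -1.32 (adjusted p = 0.00773), and Polrmt, the mitochondrial RNA polymerase, at -0.73 (adjusted p = 0.031). In the congenic against BDIV 6 of 12 were higher and 0 lower (50%, against 18.1% of all probes, median 0.62), among them the mitochondrial transcription factor Tfb1m at 1.46 (adjusted p = 0.00441), Polg2 at 1.33 and Polrmt at 1.15. Polg2 and Tfb1m were each detected on 4 of the 6 arrays. In the BDIV male and female pools Polg2 read 5.32 and 5.41 and Tfb1m 5.41 and 5.56, close to background. The sizes of their differences from BDIV are therefore uncertain. Nrf1, which binds the NRF-1 motif, differed by -0.37 in BDIV against BDIX and by 0.57 in the congenic against BDIV (adjusted p = 0.23 and 0.07). Gabpa, the DNA-binding subunit of GABP, differed by 0.07 and 0.28 in the same comparisons (adjusted p = 0.837 and 0.31).

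Genes outside the mitochondrion were read in the same way. Proteasome subunits had 10 of 35 higher in BDIV than in BDIX (28.6%, median 0.46), and 13 of 35 lower in the congenic than in BDIV (37.1%, against 18.9% of all probes). Cytosolic ribosomal proteins had 4 of 57 higher in BDIV (7.02%, median 0.23), fewer than the 13.7% of all probes. In BDIX the male pool exceeded the female pool by a median of 0.66 in cytosolic ribosomal proteins, 0.63 in mitochondrial ribosomal proteins, 0.49 in import subunits and 0.29 in proteasome subunits. The corresponding medians were -0.17 in citric acid cycle genes, -0.16 in glycolysis and -0.23 in biogenesis regulators. Macrophage markers had the widest gap of the lists read, a median of 1.53 over 7 probes, with a summed normalised intensity of 5789 in the BDIX male and 1976 in the BDIX female pool. Their part in the members' gap was not tested.

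**Figure D4:**
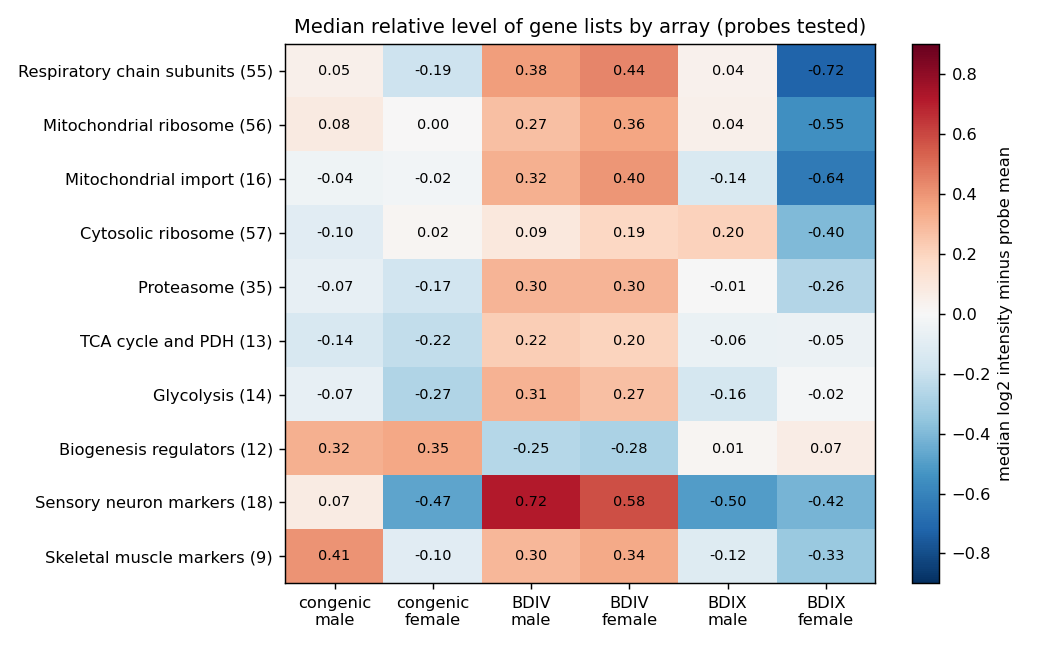
Median log2 intensity relative to the probe mean over 6 arrays, for 10 gene lists (rows, with the number of probes tested) by pool (columns). Red is above and blue below the mean of each probe. The subunits, mitochondrial ribosome and import rows are lowest in the BDIX female pool, and so are the cytosolic ribosome, proteasome and skeletal muscle rows. The biogenesis regulators are lowest in the BDIV pools, and the sensory neuron markers are highest in the BDIV pools.

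Markers of other cells were read on the same scale. The sensory neuron and axon markers' summed normalised intensity was 99135 to 124877 in the congenic, 170668 to 171707 in BDIV and 89896 to 105016 in BDIX, and Calca and Scn9a were detected on no array. Their male minus female median in BDIX was -0.18, against 0.73 for the members. The myelinating Schwann cell markers' summed intensity was 86072 to 94440 in the congenic, 54692 to 66703 in BDIV and 102358 to 140849 in BDIX, and all 10 were detected on at least 2 arrays. Of the skeletal muscle markers 11 of 23 were detected on no array, Myh2, Myh4, Tnni1 and Tnni2 among them. Of the 9 tested, 2 were higher in BDIV than in BDIX (22.2%, against 13.7% of all probes): Acta1 at 2.28 and Pvalb at 1.68. In the congenic against BDIX 2 of 9 were also higher (22.2%, against 4.33% of all probes). Against BDIV 2 were higher and 2 lower in the congenic (22.2% each, against 18.1% and 18.9% of all probes). Their summed intensity was 1220 to 1872 in the congenic, 1888 to 2003 in BDIV and 754 to 1034 in BDIX. Of the brown fat markers Ucp1, Elovl3, Dio2 and Adrb3 were detected on no array, and Cidea read 8.04 and 7.86 in BDIV, against 6.56 and 5.35 in BDIX (adjusted p = 0.00779). The 7 tested airway and gland markers summed to 4293 to 4557 in the congenic, 210 to 226 in BDIV and 216 or less in BDIX, and Bpifb1, Obp1f and Scgb1a1 were detected on no array. The part of the muscle and fat markers was not tested either.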

How the data were processed

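RNA from pooled trigeminal nerves was extracted with Trizol and labelled with an Ambion kit, per the labels' protocols. The submitters' processing notes name BeadStudio 3.0. The authors deposited, per the file headers, a signal intensity on a linear scale and a detection p-value for each probe on each array. The deposited second table holds the authors' processed intensity values, which lie on 1 straight line against the signal within an array, and served as an alternative. Of 21791 probes, 242 held exchanged values when both files were matched (tolerance 0.05) and were left out. The platform annotation gave 13387 probes 1 gene symbol and 8404 none.

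Background was corrected with a normal-exponential model whose mean and SD came from the detection p-value, which moved in steps implying 825 control probes. The 623 probes off these steps were not used to estimate the mean and SD. Being off the steps did not exclude a probe from testing. After adding an offset of 16, the arrays were brought to common quantiles and put on the log2 scale (limma 3.58.1, R 4.3.3). Detection at p under 0.01 on 2 or more of the 6 arrays was required, which left 10484 probes for testing. Strain and sex were the terms of a limma fit over all 6 arrays (2 residual degrees of freedom, 5.28 prior degrees of freedom, intensity trend), and p-values were adjusted by Benjamini-Hochberg over all probes tested. Groups came from the sample titles, and the number of arrays limits the precision. No batch is labelled, so strain and hybridisation batch cannot be told apart. Where no array of a strain detected a probe, the fold is a bound: the mean of the brighter strain over a floor, which on each array is the dim probe's value or, if larger, the lowest value of any detected probe. In simulated data with 10484 probes, noise was drawn separately for each probe, and only 100 probes were shifted by 1 and 100 by 2 (log2). The BDIV against BDIX test recovered 24 of the former and 92 of the latter, with 8 false calls. In the real comparison 27.3% of probes were called, and many members moved together on single arrays. The simulated recovery and false calls therefore do not carry over to it.

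Members, gene lists and tests were chosen with earlier results of these data known. Named genes are up to 4 members of each complex with the smallest p in each comparison, a set of core subunits and isoforms, and every member that is no subunit, and other members are named where they were called or singled out after their values were seen. Alternatives changed the background correction, offset, normalisation, detection filter, table, model terms, exchanged probes, member definition and the arrays used.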

Additional observations from a re-analysis of the deposited data

Results flagged for a closer look

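Congenic minus BDIX had opposite signs in the 2 sexes for the members and for complexes I, IV and V, and also for some other gene lists. The members' median was -0.04 between the male and 0.42 between the female pools (log2). In complex I it was -0.02 in males and 0.52 in females, in complex IV -0.35 and 0.38, and in complex V -0.20 and 0.55. Among the other lists the mitochondrial ribosomal proteins stood at -0.01 in males and 0.52 in females, the import subunits at -0.04 and 0.58, the cytosolic ribosomal proteins at -0.21 and 0.36 and the macrophage markers at -0.36 and 1.36. The difference between the sexes was not tested, since each rests on 1 pool per strain.

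The gap between the male and the female pool also had opposite signs in BDIX and BDIV. Male minus female, the members' median was 0.73 in BDIX and -0.06 in BDIV. In complex I it was 0.94 and -0.06, in complex III 0.51 and -0.03, in complex IV 0.73 and -0.12, and in complex V 0.93 and -0.12, each with BDIX first. These differences were not tested. The same BDIX female array enters both patterns.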

How the results depend on the processing

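The median of the members stayed above 0 in BDIV minus BDIX and below 0 in congenic minus BDIV under every alternative run, while the counts of calls moved widely. Median scaling moved the median of all probes to 0.08 in BDIV minus BDIX, -0.52 in congenic minus BDIX and -0.64 in congenic minus BDIV. With it, 42 members were called higher in BDIV than in BDIX (20.4% of all probes), and complex II stood at 0.30. In congenic minus BDIX 15 were called lower (23.4% of members, against 40.2% of all probes), and the medians were -0.36 for the members, -0.33 in complex I, -0.35 in II, 0.14 in III and -0.45 in IV. In congenic minus BDIV 1 was called higher and 54 lower (51.7% of all probes lower), and the medians were -1.24 for the members, -1.29 in complex I, -0.79 in II, -0.68 in III, -1.78 in IV and -1.18 in V. Ndufv1 in congenic minus BDIX (-0.56, adjusted p = 0.0318) and Sdhd (-0.46) and Uqcrfs1 (-0.63) in congenic minus BDIV turned negative there. Ndufa10l1 lost its higher call in congenic minus BDIV under this scaling, at -0.04 (adjusted p = 0.869). The cause was not tested.

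Cyclic loess moved complex II to 0.081 in BDIV minus BDIX and -0.13 in congenic minus BDIV. In the authors' processed values 7 members were higher in BDIV than in BDIX, against 8.33% of all probes. In congenic minus BDIX 3 were higher and 0 lower, against 2.84% and 4.89% of all probes. In congenic minus BDIV 6 were lower in these values, against 15.2% of all probes. There complex II stood at 0.10, 0.44 and 0.21 in BDIV minus BDIX, congenic minus BDIX and congenic minus BDIV, complex III at 0.94 in congenic minus BDIX and 0.32 in congenic minus BDIV, and complex V at -0.18 in congenic minus BDIV. Testing only probes detected on all 6 arrays left 0 lower in BDIV than in BDIX, against 18.7% of all probes. It left 1 higher in congenic than in BDIX (6.93% of all probes) and 1 higher in congenic than in BDIV (22%). With no filter 15 were higher in BDIV than in BDIX (5.18% of all probes) and 0 lower in congenic than in BDIX (2.24%). Also with no filter, 0 were higher in congenic than in BDIV (8.49%), with complex IV at -0.81 in that comparison. Without the sex term 4 were higher and 2 lower in congenic than in BDIX, against 6.69% and 8.87% of all probes. In congenic minus BDIV 1 was then higher, against 20% of all probes. With no intensity trend 0 were lower in congenic than in BDIX (7.25% of all probes). With no background correction, or with an offset of 50, 1 was higher in congenic than in BDIV, each against 18% of all probes.

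Leaving out each array in turn gave 0 to 49 members higher and 0 to 2 lower in BDIV than in BDIX, with complex II between -0.026 and 0.079. In congenic minus BDIX it gave 0 to 32 higher and 0 to 15 lower, with complex III between 0.32 and 0.87, IV between -0.50 and 0.49 and V between -0.24 and 0.65. In congenic minus BDIV the medians lay between -0.77 and -0.26 for the members, -0.84 and -0.16 in complex I, and -0.057 and 0.11 in II. They lay between -0.33 and 0.062 in III, -1.30 and -0.72 in IV, and -0.84 and -0.31 in V. Without 1 array its strain has 1 pool, which is assumed to vary like the others. The test for sex called 0 members in every fit that held the sex term. The sex term already pairs the male pools and the female pools across strains, and the labels number no replicates that could serve as another block. Signal at background limits what can be read of Cox6c in the congenic and of Atp5mk in BDIV.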
